A study of Mus musculus with 8 samples.

Results

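The genes described here encode the protein kinases, cyclins and phosphatases that drive cells into mitosis, the spindle checkpoint, the anaphase-promoting complex or cyclosome (APC/C) and the chromosome and spindle proteins they act on. They were chosen as a list of 45 genes, all found among the 21887 protein-coding genes annotated on the mouse build GRCm38.p6. Each was set against an atlas of 76872 accessible regions. A region was counted at an end when at least 1 bp of it lay within 1 kb of an outer limit of the gene, inside when it touched the gene but lay farther from both limits, and distal when it lay outside the gene, within 50 kb of a limit and not within 1 kb of the limits of any protein-coding gene.

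The atlas comes from ATAC-seq, which cuts and tags open chromatin with the transposase Tn5, on induced pluripotent stem cells of the mouse. They were 1 clone carrying FUCCI2, reporters whose fluorescence tells the phase of the cell cycle. The 8 libraries, of 50000 cells each, formed 4 groups of 2 replicates. One group was arrested for 6 hours with nocodazole at 200 ng/ml, which prevents spindle assembly, and collected by mitotic shake-off. Others were arrested in the same manner and released into fresh medium for 1 hour or 3 hours. The last was asynchronous and untreated. All groups shared the same culture, on irradiated feeders, in medium that held LIF, serum and blockers of GSK3 and MEK. Whether replicates are separate cultures is not stated. The series addresses how chromatin and transcription are reset as stem cells leave mitosis. The deposited regions form 1 list for the whole series with no value per library, so the depth of the libraries is unknown and no difference between arrested, released and asynchronous cells can be given. Of the markers of the labelled cell type, 5 of 5 pluripotency genes (Nanog, Sox2, Klf4, Zfp42 and Tfcp2l1) had a region at an end, as did 1 of 8 feeder fibroblast genes (Col1a1). The part of feeder cells in the atlas was not tested.

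Entry into mitosis requires Cdk1 bound to B- or A-type cyclins, switched on by CDC25 phosphatases and followed by the Polo-like kinase Plk1 and the Aurora kinases. The spindle checkpoint holds the APC/C inactive until every kinetochore is attached to the spindle. The APC/C, a ubiquitin ligase, then marks securin and cyclin B for destruction, so that separase opens the cohesin rings and the cells leave mitosis. Many genes of this programme are transcribed mainly late in the cell cycle. Their promoters often carry the cell cycle genes homology region (CHR), bound by the DREAM and MuvB-containing complexes, and CCAAT boxes, bound by NF-Y.

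The promoters below are shown as examples with CHR or CCAAT letters in the printed stretch. At Spc25, Cdca8 and Cdc27 that stretch holds CCAAT letters only. They are the 200 bases before the annotated start, from RefSeq on GRCm38.p6, written 5′ to 3′ in the direction of the gene. Capitals mark CHR letters (TTTGAA, or TTCAAA where they lie on the other strand) and CCAAT letters (CCAAT, or ATTGG on the other strand). In Ube2c, a copy on each strand share letters and form 1 run of capitals. The sequences are Cdk1 at chr10:69352913-69353112 on the minus strand, Bub3 at chr7:131560170-131560369 on the plus strand, Cdc20 at chr4:118437344-118437543 on the minus strand, Ube2c at chr2:164769729-164769928 on the plus strand, Espl1 at chr15:102296093-102296292 on the plus strand, Spc25 at chr2:69206214-69206413 on the minus strand, Cdca8 at chr4:124936918-124937117 on the minus strand, Ect2 at chr3:27153879-27154078 on the minus strand, and, as an APC/C subunit with CCAAT letters and no CHR letters, Cdc27 at chr11:104550621-104550820 on the minus strand.
Cdk1: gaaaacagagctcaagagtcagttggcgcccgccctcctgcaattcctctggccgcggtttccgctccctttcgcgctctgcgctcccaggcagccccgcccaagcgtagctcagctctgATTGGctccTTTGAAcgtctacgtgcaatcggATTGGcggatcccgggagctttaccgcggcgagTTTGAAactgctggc
Bub3: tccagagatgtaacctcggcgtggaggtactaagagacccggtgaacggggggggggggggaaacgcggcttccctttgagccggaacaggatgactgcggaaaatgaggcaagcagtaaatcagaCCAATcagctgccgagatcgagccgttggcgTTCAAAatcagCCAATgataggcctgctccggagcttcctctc
Cdc20: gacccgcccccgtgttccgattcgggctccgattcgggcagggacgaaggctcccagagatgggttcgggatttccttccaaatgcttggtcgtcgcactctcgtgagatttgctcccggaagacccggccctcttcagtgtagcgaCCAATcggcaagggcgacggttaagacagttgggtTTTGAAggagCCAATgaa
Ube2c: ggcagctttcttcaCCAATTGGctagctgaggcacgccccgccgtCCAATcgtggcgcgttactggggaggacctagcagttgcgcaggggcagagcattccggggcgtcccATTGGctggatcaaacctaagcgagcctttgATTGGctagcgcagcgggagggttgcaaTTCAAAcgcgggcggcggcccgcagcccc
Espl1: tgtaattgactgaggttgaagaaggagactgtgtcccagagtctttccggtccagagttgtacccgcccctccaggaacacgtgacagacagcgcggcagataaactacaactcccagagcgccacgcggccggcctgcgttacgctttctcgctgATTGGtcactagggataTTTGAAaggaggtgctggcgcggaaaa
Spc25: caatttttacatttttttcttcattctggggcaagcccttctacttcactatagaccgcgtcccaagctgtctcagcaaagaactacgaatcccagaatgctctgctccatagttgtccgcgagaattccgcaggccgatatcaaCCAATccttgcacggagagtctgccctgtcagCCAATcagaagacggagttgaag
Cdca8: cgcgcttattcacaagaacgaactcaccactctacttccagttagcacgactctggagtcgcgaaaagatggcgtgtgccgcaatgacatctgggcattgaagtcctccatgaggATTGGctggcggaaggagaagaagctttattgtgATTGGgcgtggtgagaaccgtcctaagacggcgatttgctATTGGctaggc
Ect2: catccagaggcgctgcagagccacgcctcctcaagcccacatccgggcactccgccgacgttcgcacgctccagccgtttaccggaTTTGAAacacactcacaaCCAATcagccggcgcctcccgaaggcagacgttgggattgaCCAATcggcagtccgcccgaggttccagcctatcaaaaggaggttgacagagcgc
Cdc27: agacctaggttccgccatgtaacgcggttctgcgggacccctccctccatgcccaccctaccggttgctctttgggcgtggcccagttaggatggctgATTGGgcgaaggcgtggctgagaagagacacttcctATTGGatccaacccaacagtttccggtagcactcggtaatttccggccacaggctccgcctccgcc

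All 45 genes had an accessible region at an end. Over all protein-coding genes, 62.0% had one. The 45 genes held 53 distinct regions at their ends, whose width had a median of 691 bp and quartiles of 513 and 822 bp. The 15779 regions at an end of any protein-coding gene had a median of 525 bp, with quartiles of 272 and 790 bp. The width of a region is the only measure the atlas gives, and the figures are a description of 1 list, without a test, since genes are not replicates of a condition. Of the widest regions at an end of each gene, 39 of 45 were at least 500 bp wide (86.7%), against 68.3% of all protein-coding genes that had such a region.

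The regions lay at the starts of the genes and rarely at their far ends. The direction of transcription was known for 38 of the 45 genes, those with a RefSeq promoter. All 38 had a region within 1 kb of the outer limit on the start side, against 59.0% of the 17492 protein-coding genes of known direction. At the far side, 4 of 38 (10.5%) had a region, against 11.7% of these genes. The 4 were Cdk1, Bub1b, Anapc11 and Fzr1, and they were also the only genes of the 45 with a region at both ends, against 8.47% of all protein-coding genes. Far-end regions were thus about as frequent as over all genes.

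**Figure D1:**
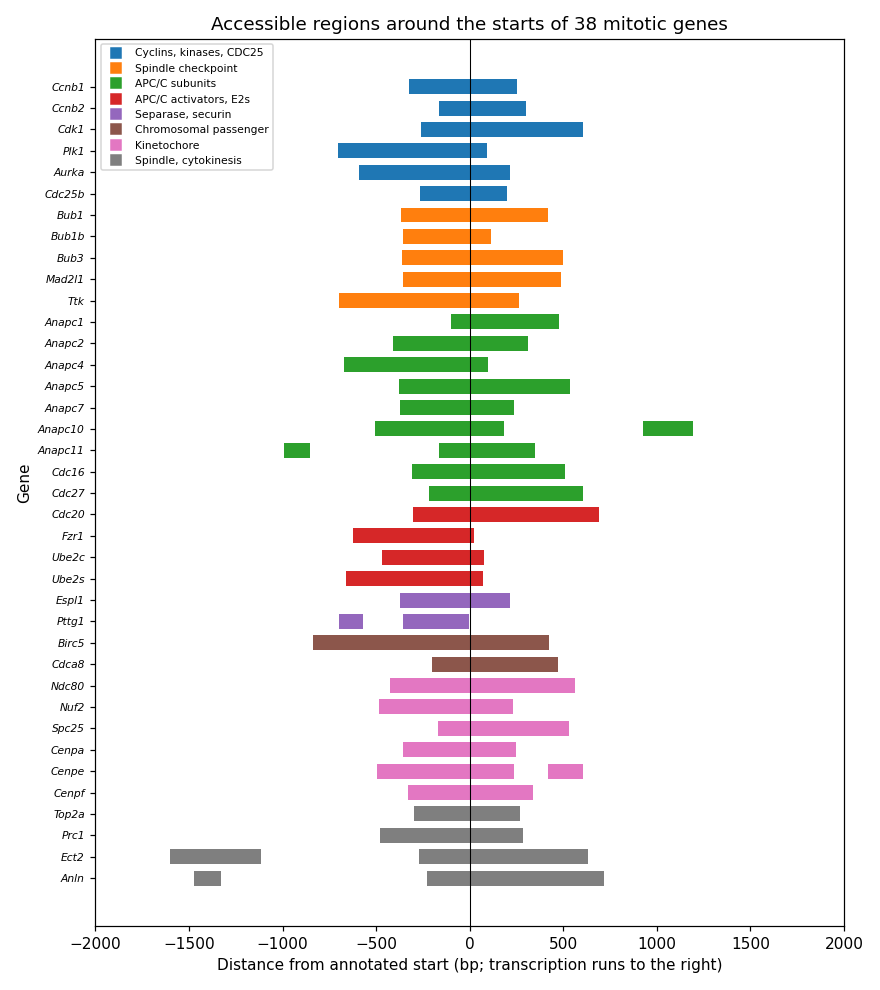
Accessible regions (bars) within 2000 bp of the annotated start of 38 mitotic genes, coloured by functional group, with distance from the start in bp on the horizontal axis and transcription running to the right. For genes with more than 1 annotated start, the outermost was used. A single wide bar spans the start in 37 of the 38 genes, and the bar of Pttg1 stops just before it.

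Coverage at the start was close to complete. At the start itself, 37 of 38 genes (97.4%) were covered by a region, against 51.2% of the 17492 protein-coding genes. At 250 bp upstream the shares were 81.6% and 36.0%, and at 250 bp downstream 60.5% and 36.4%. At 750 bp downstream none of the 38 was covered, against 8.19% of all. The higher coverage of the mitotic genes was thus seen near the start and was not seen at 750 bp beyond it.

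**Figure D2:**
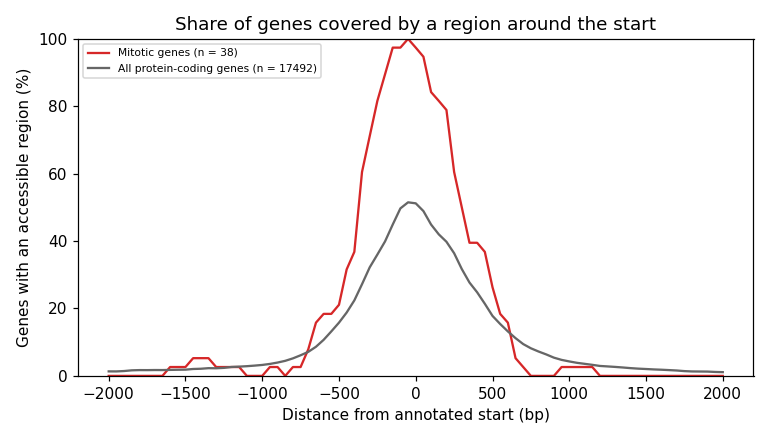
Share of genes (%) with an accessible region at each distance (bp) from the annotated start, for 38 mitotic genes (red) and 17492 protein-coding genes (grey), in steps of 50 bp. The red line reads 97.4% at the start and the grey line 51.2%.

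The 38 genes had 43 promoter windows in the RefSeq table, each from 250 bases before to 50 after a start, because 5 genes had 2 overlapping windows each. A region touched every one of the 43, against 54.8% of the 21263 windows of protein-coding genes and 41.8% of all 32851 windows in the table, which include other kinds of gene. In 34 of 43 windows (79.1%) all 300 bases lay in a region, against 53.7% of the windows that were touched at all. Regions covering a start reached a median of 364 bp upstream and 295 bp downstream of it in the 42 windows whose start was covered. In all 12205 windows with a covered start, the medians were 337 and 311 bp.

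The cyclins, kinases and phosphatases had regions of very different widths. Cdk1, the kinase that drives mitosis, had a region of 863 bp at its start, at chromosome 10, 69352308 to 69353170, and one of 347 bp near its far end, at 69335503 to 69335849. Ccna2, which encodes cyclin A2, had a region of 988 bp at chromosome 3, 36571417 to 36572404, 0.634 kb inside its outer limit. The genes of the B-type cyclins had narrower ones, of 581 bp at Ccnb1 and 467 bp at Ccnb2. Plk1, a kinase of centrosome maturation and cytokinesis, and Aurka, a kinase of spindle poles, were alike, with 800 and 809 bp. Aurkb, the kinase of the chromosomal passenger complex, had only 364 bp. Of the phosphatase genes that switch Cdk1 on, Cdc25b had 467 bp and Cdc25c 305 bp. Among protein-coding genes with an end region, 81.1% had a wider one than Aurkb and 86.2% a wider one than Cdc25c. In this group, 5 of 9 genes (55.6%) had 500 bp or more. This share was lower than in the checkpoint, APC/C or kinetochore groups and than the 68.3% of all protein-coding genes with an end region. Of the separase and securin genes, 1 of 2 reached 500 bp. Among the other kinase and regulator genes given further below, 9 of 9 did, with a median of 931 bp against 581 bp here. The lower share was thus not seen in those other kinase and regulator genes, and none of these differences was tested.

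The spindle checkpoint genes had wide regions with 1 exception. Ttk, the kinase Mps1 at the top of the checkpoint, had 961 bp. Bub3, which carries Bub1 and BubR1 to kinetochores, had 860 bp, and Mad2l1, whose product Mad2 inhibits Cdc20, had 843 bp. Bub1, a kinase that recruits other checkpoint proteins, had 789 bp. Bub1b, which encodes BubR1, was the exception, with 471 bp at the start, at chromosome 2, 118597853 to 118598323, and 218 bp near its far end, at 118641131 to 118641348. It also had a region of 768 bp inside the gene, at 118619728 to 118620495, wider than the one at its start.

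All 10 APC/C subunit genes had a region of at least 500 bp, with a median of 745.5 bp. Cdc23, a subunit of the scaffold arm, had the widest of all 45 genes at 1344 bp, on chromosome 18 from 34651299 to 34652642. Only 3.14% of protein-coding genes with an end region had a wider one. The other arm subunits had 818 bp at Cdc16, 822 bp at Cdc27 and 606 bp at Anapc7. The platform subunits had 574 bp at Anapc1, 769 bp at Anapc4 and 916 bp at Anapc5. The catalytic pair are the cullin Anapc2, with 722 bp, and the RING protein Anapc11, with 513 bp. Anapc11 had a further narrow region of 141 bp at chromosome 11, 120597430 to 120597570. Another, of 110 bp, lay beyond its far end, at 120608332 to 120608441. Anapc10, which helps to bind substrates, had 691 bp at its start and 267 bp downstream.

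The activators and partners of the APC/C all had a region of at least 500 bp as well, as did 68.3% of protein-coding genes with an end region. Cdc20, the activator that the checkpoint inhibits, had 992 bp at chromosome 4, 118436653 to 118437644. Fzr1, which encodes Cdh1, the activator of late mitosis and G1, had 652 bp at its start, at chromosome 10, 81378345 to 81378996. Its other region, of 663 bp at 81365498 to 81366160, lay beyond the far end and within reach of an end of Mfsd12 and of 4930404N11Rik. Of the ubiquitin-conjugating enzymes, Ube2c, which starts the chains, had 548 bp and Ube2s, which extends them, 733 bp. The regions of Fzr1, Ube2c and Ube2s lay mostly upstream, reaching 626, 470 and 659 bp before the start and 25, 77 and 73 bp beyond it. That of Cdc20 reached farther downstream, with 690 bp against 301 bp upstream.

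Separase and its inhibitor securin stood apart from each other. Espl1, which encodes separase, had a region of 589 bp across its start. Pttg1, which encodes securin, had 131 bp within reach of its outer limit, at chromosome 11, 43426551 to 43426681, and 96.6% of protein-coding genes with an end region had a wider one. The annotated RefSeq start of Pttg1 lies inside that outer limit. In the direction of the gene, a region of 351 bp at 43425985 to 43426335 ended 4 bp before this start. It covered 247 of the 300 bases of the promoter window. Pttg1 was the only 1 of the 38 genes whose annotated start was not covered.

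In the chromosomal passenger complex, which corrects faulty attachments of the spindle, Birc5, encoding survivin, had a region of 1258 bp at chromosome 11, 117848402 to 117849659. Incenp, its scaffold, had 853 bp, and Cdca8, which encodes borealin, 676 bp. Aurkb, the kinase of the same complex, had the narrow region given above. The complex thus held the second widest and one of the narrower regions of the 45 genes.

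The kinetochore genes all had a region of at least 500 bp at an end, and the widest per gene had a median of 717 bp. Over all protein-coding genes with an end region, that median was 660 bp. The 4 genes of the NDC80 complex, which grips microtubules, had 988 bp at Ndc80 (chromosome 17, 71526296 to 71527283), 717 bp at Nuf2, 791 bp at Spc24 and 704 bp at Spc25. Cenpa, the histone H3 variant of centromeres, had 600 bp. Cenpf, a large protein of the outer kinetochore, had 668 bp, and Cenpe, a kinesin that moves chromosomes to the spindle equator, 736 bp. Cenpe had another region of 186 bp further into the gene, at chromosome 3, 135212981 to 135213166. All 7 genes thus lay between 600 and 988 bp.

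The genes of the spindle midzone, cytokinesis and chromosome structure ranged from 566 bp at Top2a, which untangles sister DNA, to 951 bp at Anln, which encodes the contractile ring protein anillin. Ect2, the activator of RhoA in cytokinesis, had 906 bp, and a further region of 486 bp upstream. Prc1, which bundles microtubules of the midzone, had 769 bp, and Tpx2, the activator of Aurora A, 609 bp.

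**Figure D3:**
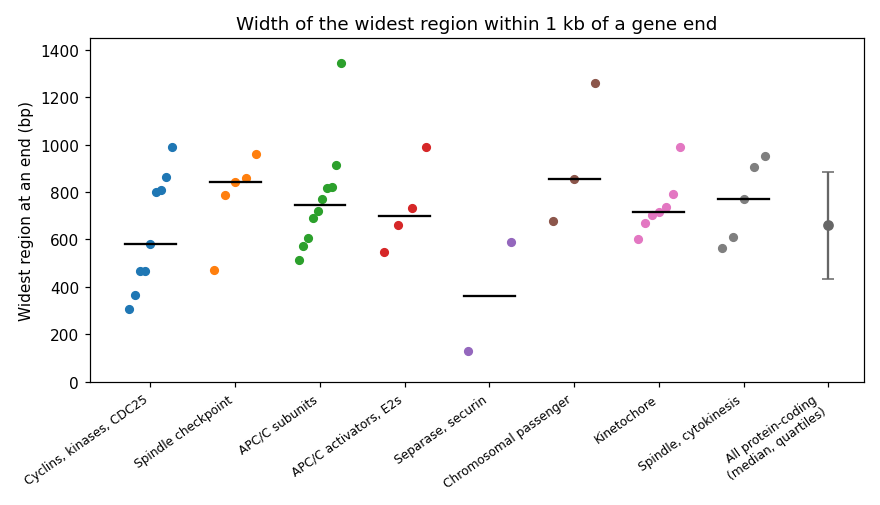
Width (bp) of the widest accessible region within 1 kb of either end, for each of 45 mitotic genes (points) by functional group, with the group median as a bar. The grey point with whiskers is the median and quartiles of all protein-coding genes with such a region (660 bp, 434 to 884.5 bp), and the points run from 131 bp at Pttg1 to 1344 bp at Cdc23.

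Of the 53 end regions, 13 also lay within 1 kb of an end of another protein-coding gene, and they belonged to 10 of the 45 genes. The same share over all protein-coding genes was not counted, so whether 13 of 53 is unusual is not known. At the start sides these neighbours were Cstf1 for Aurka, Ssna1 for Anapc2, Abce1 for Anapc10, Alyref for Anapc11, 9930104L06Rik for Cdca8, Spdya for Ndc80, Rccd1 for Prc1 and 9530077C05Rik for Anln. For Ccna2, whose direction was not given, the neighbour was Bbs7. A region shared in this way cannot be assigned to 1 of the genes.

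CHR letters were found in a smaller share of the APC/C subunit genes than of the other listed genes. In all they were found, on either strand, in 20 of the 38 genes with a promoter sequence (52.6%), against 11.9% of the 10106 protein-coding genes with a promoter touching a region. By window the count was 23 of 43 (53.5%, 95% Wilson interval 38.9 to 67.5%, for counting error only), against 17.9% of all 32851 windows and 11.1% of the 13719 that touch a region. The interval treats windows as separate, although some genes had overlapping windows that hold the same copies. Of the 9 APC/C subunit genes with a promoter, 1 had CHR letters, Anapc7, against 19 of the other 29 genes (65.5%). The share in the APC/C subunit genes, 11.1%, was thus near that of open promoters in general. No test was made of this contrast, and a match says only that these letters are present.

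By group, CHR letters were found in 4 of 6 cyclin, kinase and phosphatase genes (Ccnb2, Cdk1, Plk1 and Aurka), in 3 of 5 checkpoint genes (Bub1b, Bub3 and Ttk) and in 4 of 6 kinetochore genes (Ndc80, Spc25, Cenpa and Cenpf). All 4 spindle and cytokinesis genes with a promoter held them, namely Top2a, Prc1, Ect2 and Anln. Among the partners of the APC/C, Cdc20 and Ube2c held them and Fzr1 and Ube2s did not. Espl1 held them and Pttg1 did not, and Cdca8 held them and Birc5 did not. Ccnb1 was the 1 cyclin gene of the 2 with a promoter sequence in which they were not found. These counts are for TTTGAA only, and the form TTCGAA was counted as an alternative, given further below.

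The letters sat close to the start. Of the 23 windows with CHR letters, 22 (95.7%) had a copy that began no farther than 100 bases upstream, against 38.7% of the 1528 open windows with CHR letters. As a share of all windows of each set, these were 51.2% of the 43 and 4.32% of open windows. Of the 29 copies counted over all windows, 28 lay wholly inside a region, and 14 began at or after the start. A copy in 2 overlapping windows of a gene was counted in each. The copy not wholly inside was 1 of 2 at Ccnb2, which began 167 bases before the start, just beyond the edge of the region. The count inside regions follows largely from coverage, since all 300 bases lay in a region in 34 of the 43 windows. In the sequences above, the copies of Cdk1 begin 71 and 15 bases before the start, that of Cdc20 18, that of Espl1 27 and that of Ube2c 29 bases before it. The copies of Spc25 and Cdca8 lie after the start, at bases 25 and 14, and are not in the printed stretch.

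CCAAT letters were found in 26 of the 38 genes (68.4%), against 42.7% of protein-coding genes with an open promoter, and 2 or more copies in 17 (44.7%, against 17.6%). Ube2c and Top2a had the most, with 6 copies each. All 6 cyclin, kinase and phosphatase genes held CCAAT letters, and 4 of the 9 APC/C subunit genes did (Anapc5, Anapc10, Anapc11 and Cdc27). All 64 copies counted over the windows lay wholly inside a region, as did all 300 bases of 34 of the 43 windows. CHR and CCAAT letters occurred together in 17 genes (44.7%), against 5.75% of protein-coding genes with an open promoter, and in none of the 9 APC/C subunit genes. Neither they nor the E2F letters given below were found in 9 genes (23.7%), against 49.2% of protein-coding genes with an open promoter. The 9 were Mad2l1, Anapc1, Anapc2, Anapc4, Cdc16, Ube2s, Pttg1, Birc5 and Nuf2.

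E2F letters (TTTCCCGC, TTTGGCGC or TTTGCCGC, on either strand) were found in none of the 43 windows, against 1.99% of all windows and 3.73% of open ones. Other forms were not searched, among them TTTCGCGC, which is present in the Cdk1 promoter printed above. The count therefore covers the listed forms only. The base composition of the windows differed too. The median content of G and C was 59.0% in the 43 windows, against 61.7% in open windows and 52.7% in all, and it was 63.0% in the APC/C subunit windows and 58.8% in the other 32. The 6 spindle and cytokinesis windows, from 4 genes, had a median of 62.0%. The letters TTTGAA are poor in G and C, and the part of base composition in the contrast of CHR counts was not tested. The ratio of observed to expected CpG was 0.930 in the 43 windows, against 0.769 in open windows.

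**Figure D4:**
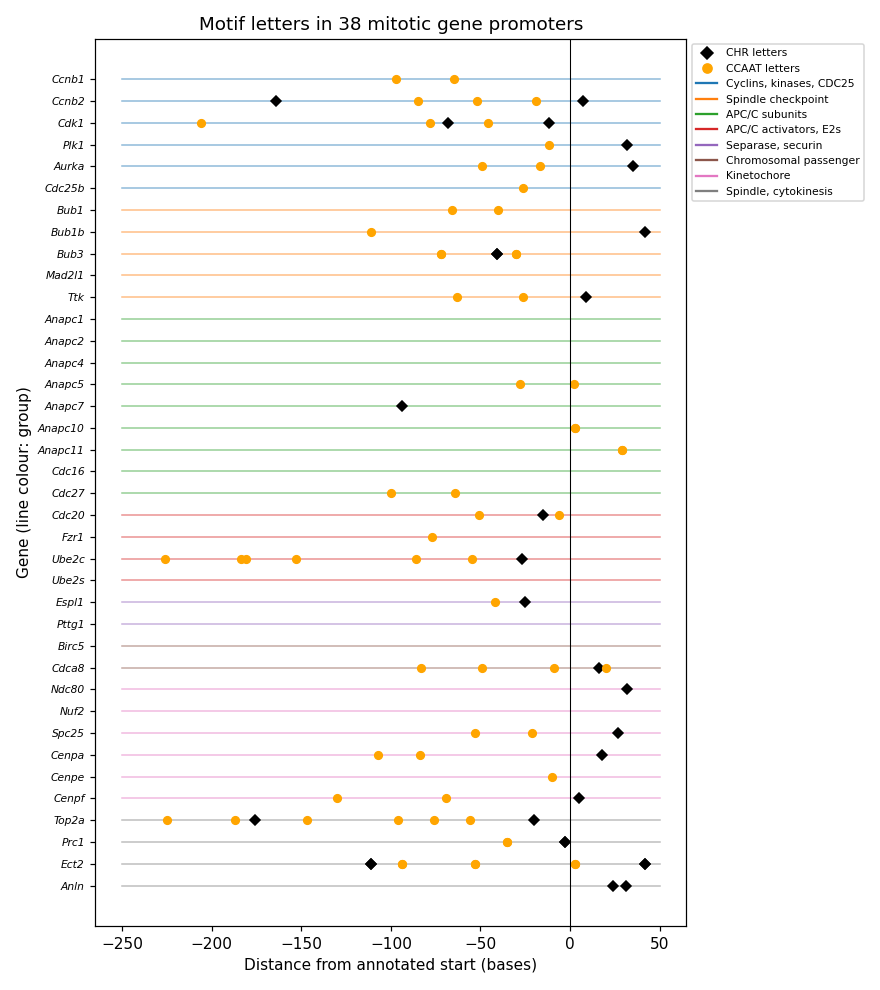
Positions of CHR letters (black diamonds) and CCAAT letters (orange circles) in the promoter window of 38 mitotic genes, in bases from the annotated start, with 1 window per gene and line colours for functional groups. CHR letters are marked in 1 of 9 APC/C subunit genes, Anapc7.

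Inside the genes, accessible regions were found at a share near that of other genes. Of the 45 genes, 17 (37.8%) had a region inside, against 43.2% of all protein-coding genes. There were 30 such regions with a median width of 169.5 bp, against 242 bp for the 28057 inside any protein-coding gene. Longer genes hold more of them. Among the 22 genes of 20 to 80 kb, 13 had a region inside (59.1%, against 62.4% of protein-coding genes of these lengths), and among the 20 of 5 to 20 kb, 4 had one (against 30.6%). Anapc7, Tpx2 and Anln had the most, with 3 each, and 6 of the 10 APC/C subunit genes had at least 1. Anapc4 had regions of 456 and 161 bp, Anapc5 of 402 and 108 bp, and Cdc23 1 of 465 bp. No region inside a gene was found at Anapc1, although it is the longest of the 45 at 77.3 kb.

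The mean number of distal regions over the 45 genes was close to that of all protein-coding genes. The 45 genes had 3.60 ± 2.43 within 50 kb (mean ± SD over genes), with a median of 3 and a range of 0 to 9, against 3.43 ± 2.94 and a median of 3 over all protein-coding genes. At least 1 was found at 41 of 45 genes, against 87.6% of all. By group, the means were highest at 5.50 for the 4 APC/C activators and ubiquitin-conjugating enzymes and 5.33 for the 3 passenger genes. They were 4.22 for cyclins, kinases and phosphatases, 3.80 for spindle and cytokinesis genes, 3.50 for separase and securin and 3.20 for APC/C subunits. Kinetochore genes had 2.43 and checkpoint genes 2.20. The groups hold 2 to 10 genes each, and the differences between them were not tested.

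Cdk1 had the most distal regions, 9, the widest of them 563 bp at chromosome 10, 69327381 to 69327943, 7.20 kb beyond its limit. Aurkb, Ube2s and Birc5 had 8 each. Those of Aurkb included one of 966 bp at chromosome 11, 69039804 to 69040769, with 2 of 415 and 179 bp next to it, between 3.77 and 4.86 kb from the gene, and the widest was thus wider than the region of 364 bp at its own end. At Birc5 the nearest lay 1.82 kb away, with 436 bp at chromosome 11, 117857563 to 117857998, and at Ube2s the nearest lay 1.01 kb away, with 192 bp. Fzr1, Spc24 and Anln had 7 each. The widest distal region of all was 1013 bp, 24.7 kb from Ndc80. None was found near Ccna2, Ttk, Spc25 and Prc1, whose regions at the ends were of 988, 961, 704 and 769 bp. The widest end region per gene had a median of 733 bp over the 45 genes, so that of Spc25 was narrower.

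**Figure D5:**
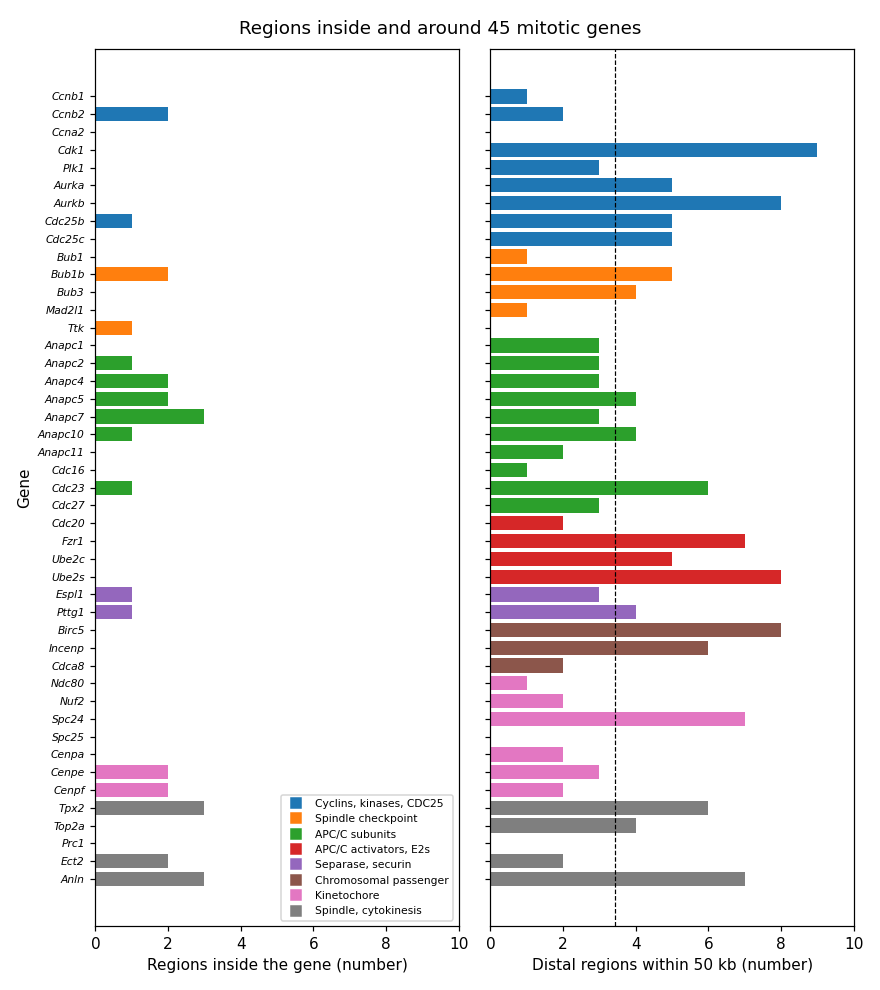
Number of accessible regions inside each of 45 mitotic genes (left) and of distal regions within 50 kb (right), coloured by functional group, with the mean of all protein-coding genes (3.43) as a dashed line on the right. Cdk1 has 9 distal regions, and Ccna2, Ttk, Spc25 and Prc1 have none.

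Other genes of the same machinery, 49 in all, also had regions at their ends in nearly every case. At least 1 end was marked by a region in 46 of them (93.9%, against 62.0% of protein-coding genes), including 24 of 24 kinetochore genes and 9 of 9 kinase and regulator genes. The 3 without were Anapc15, an APC/C subunit, and Sgo1 and Sgo2a, which encode the shugoshins that protect centromeric cohesion. All 3 had a region of 870, 835 and 768 bp inside the gene that covered an annotated start lying inward of the outer limit. The outer limits therefore missed their open starts. The widest region at an end had a median of 733 bp in the 45 genes above and of 906 bp in these genes, of which 42 had a promoter sequence. CHR letters were found in 15 (35.7%) and CCAAT letters in 25 (59.5%), against 11.9% and 42.7% of protein-coding genes with an open promoter. The E2F forms searched, found in none of the 38 genes above, were found in 6 (14.3%), against 4.17%. Of the other kinase and regulator genes with a promoter sequence, Cks1b held CHR letters, and Nek2, Mastl, Cdc25a, Plk4 and Cks2 did not. Among the other subunits and regulators of the APC/C, Anapc16 and Fbxo5 held them, and Anapc13, Anapc15 and Cdc26 did not.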

How the data were processed

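ATAC-seq was run on 8 libraries in 4 groups of 2. The authors deposited 1 list of regions for the series, giving only chromosome, start and end. Per the submitters' processing notes, the tools were MACS2 2.1.1, Bowtie2, cutadapt, SAMtools, Picard and bedtools, on GRCm38 (mm10). Not given in the sources used here are their parameters, the Tn5 shift, any blacklist and the way of merging libraries, and a region open in 1 library may count like one open in all. Depth is unknown.

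Regions were set against outer gene limits and promoter sequences from RefSeq on GRCm38.p6 with Python 3.11.15 and pandas 2.3.3. Coordinates count from 1. An overlap needed 1 bp. Of 45 genes, 38 had a promoter sequence, which gave the direction of the gene and its starts. Motif letters were searched on both strands. CHR stands for TTTGAA, and CCAAT and the E2F letters were counted separately. The overlap code was tested on simulated data.

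The genes, groups and lists were chosen with earlier results of these data known, so no test was made. All 45 genes are named. Coordinates are given for those with regions at both ends, the widest and narrowest end regions and the most distal regions, and a few further regions were chosen after their values were seen, as were the length classes. Promoters to print were picked within each group by the number of motif classes found, then by width. Of those picked, Aurka, Ttk, Anapc5, Pttg1, Birc5, Cenpf and Prc1 are not shown. Among these, Pttg1 and Birc5 held none of the motif letters. The comparison of the 4 groups, fixed for a file with values per library, was not made.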

Additional observations from a re-analysis of the deposited data

How the results depend on the processing

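No paired analysis was possible because the deposited regions carry no values for single libraries, and no replicate could be left out either. Of 22 alternatives, 3 were counted as moved, all in the number of distal regions, and 19 as the same. The 19 still include shifts, such as 14 rather than 17 genes with a region inside, for regions of at least 150 bp. Within 500 bp of an end, 42 of 45 genes had a region, against 57.8% of protein-coding genes. With regions of at least 150 bp it was 44, against 59.2%, and with the centre of the region within reach 43, against 60.4%. The mean number of distal regions per gene followed the window by construction, at 1.73 for 25 kb and 7.73 for 100 kb, against 1.74 and 6.73 over all protein-coding genes. With regions at the ends of other genes counted too, it was 6.31, against 5.06 over all. Among the alternatives counted as the same, it fell from 3.6 to 2.47 with regions of at least 150 bp, against 2.44 over all. With regions inside the gene counted too it was 4.27, against 4.39 over all. When TTCGAA was counted as CHR letters too, 26 of 43 windows held them (60.5%), against 12.9% of open windows. The APC/C subunit windows stayed at 1 of 11, and the other windows rose from 22 to 25 of 32. Some windows counted as without CHR letters thus hold this form. Counting CHR letters by gene, and splitting by length, were chosen after seeing the data.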

Other observations

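A pair of neighbouring CCAAT letters spaced by 31 to 33 bases was found in 4 of 6 cyclin, kinase and phosphatase genes. Over the 38 genes such a pair was found in 6 (15.8%), against 1.99% of protein-coding genes with an open promoter. Counted from first base to first base on either strand, the copies of Ccnb2 lay 33 and 33 bases apart. A spacing of 32 bases was found at Ccnb1, Aurka, Spc25 and, for the pair nearest the start, Cdk1, and one of 31 at Ube2c. A pair spaced by 31 to 33 bases occurred in 6 of the 19 windows with 2 or more copies (31.6%), against 11.2% of the 2152 open windows with 2 or more. The range was chosen after these spacings were seen, and no test was made. Just outside the range were 30 bases at Anapc5 and, among its pairs, 34 at Cdca8. Other genes had other spacings, among them 37 bases at Ttk, 36 at Cdc27, 42 at Bub3, 45 at Cdc20 and 61 at Cenpf.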
